A study of Mus musculus with 6 samples.

Results

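The 9 genes described here are transcriptional targets of the tumour suppressor p53 that act in cell cycle arrest and in the response to damage: Cdkn1a, Mdm2, Ccng1, Sesn1, Sesn2, Gadd45a, Zmat3, Phlda3 and Plk2. They were chosen by symbol from the 30438 genes of the deposited count table, and all 9 had enough counts to test. The choice was made with earlier results of these data known, so the counts and medians below are not independent of it. Messenger RNA caught on oligo(dT) was sequenced from HEI-OC1, a conditionally immortalised mouse line from the organ of Corti, the sensory epithelium of the cochlea, in which drugs toxic to hair cells are often tried. The control group was HEI-OC1 with the genotype WT (3 libraries). The other group was labelled as Nrf2 knockout HEI-OC1 (3 libraries), Nrf2 being the transcription factor that drives antioxidant and detoxification genes. Both groups were grown in DMEM with 10% serum and penicillin-streptomycin, at 33 °C and in 10% CO2, and no cisplatin or other drug is recorded for either. The submitters asked which genes lie behind the higher resistance of knockout cells to cisplatin, and the 1 comparison made is between the groups without drug. How the knockout was made, and whether it is 1 clone, is not stated in the labels, which also do not say that replicates were separate cultures, so p-values measure the spread between these libraries, which may be technical.

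As background, p53 is kept at a low level by the ubiquitin ligase MDM2, and damage such as a platinum adduct frees p53 from MDM2 so that it activates its target genes. Some targets stop the cell cycle or guide repair, others kill the cell, and Mdm2 itself is a target, which closes a negative feedback loop. HEI-OC1 carries a temperature-sensitive large T antigen, a viral protein that binds p53 and that is active at the temperature at which these cells are grown. p53 activity itself was not measured here. In cochlear cells treated with cisplatin, p53 is known as a mediator of hair cell death.

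The stretch of 250 bases before the start of transcription is shown for the 2 members that passed the test, Plk2 and Gadd45a, and for 3 that did not: Mdm2, the more upstream of the 2 starts of Cdkn1a, and Sesn2. The sequences are from RefSeq (GRCm38.p6), written 5′ to 3′ in the direction of the gene, and 8 of the 9 members were matched. Capitals mark matches on either strand to the p53 half-site consensus, to the cyclic AMP response element TGACGTCA, to the core of the antioxidant response element bound by NRF2, TGACNNNGC, or to the AP-1 motif TGANTCA. These motifs share letters, and no match printed here overlaps another.
Plk2 (chr13:110394794-110395043, plus strand): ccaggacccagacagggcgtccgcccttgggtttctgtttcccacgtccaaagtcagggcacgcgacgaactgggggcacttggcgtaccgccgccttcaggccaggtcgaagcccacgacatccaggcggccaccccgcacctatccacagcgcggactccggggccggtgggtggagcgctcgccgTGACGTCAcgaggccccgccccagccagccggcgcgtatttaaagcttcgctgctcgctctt
Gadd45a (chr6:67037408-67037657, minus strand): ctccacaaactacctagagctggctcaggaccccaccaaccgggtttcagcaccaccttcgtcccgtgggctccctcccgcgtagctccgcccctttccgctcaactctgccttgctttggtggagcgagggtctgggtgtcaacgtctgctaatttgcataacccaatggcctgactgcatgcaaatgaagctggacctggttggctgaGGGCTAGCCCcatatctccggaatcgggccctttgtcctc
Mdm2 (chr10:117710759-117711008, minus strand): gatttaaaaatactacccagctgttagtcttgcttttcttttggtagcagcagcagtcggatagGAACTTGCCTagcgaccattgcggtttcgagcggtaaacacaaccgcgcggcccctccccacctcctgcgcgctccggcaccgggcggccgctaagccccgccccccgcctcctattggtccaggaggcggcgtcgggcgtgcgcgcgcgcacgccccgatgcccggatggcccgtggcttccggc
Cdkn1a (chr17:29090729-29090978, plus strand): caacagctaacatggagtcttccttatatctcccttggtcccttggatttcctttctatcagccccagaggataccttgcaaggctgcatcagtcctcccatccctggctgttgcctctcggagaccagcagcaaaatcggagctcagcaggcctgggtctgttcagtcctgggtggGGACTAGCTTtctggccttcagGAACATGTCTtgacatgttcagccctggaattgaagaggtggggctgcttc
Sesn2 (chr4:132510457-132510706, minus strand): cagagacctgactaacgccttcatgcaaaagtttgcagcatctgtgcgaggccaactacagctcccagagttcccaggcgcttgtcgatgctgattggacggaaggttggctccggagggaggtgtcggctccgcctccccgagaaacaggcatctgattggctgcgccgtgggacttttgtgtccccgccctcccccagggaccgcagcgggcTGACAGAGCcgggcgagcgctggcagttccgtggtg

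The window of Plk2 held no p53 half-site, and its 1 match was to the cyclic AMP response element, from 62 to 55 bases before the start. Gadd45a had 1 half-site, from 40 to 31 bases before the start, and Mdm2 had 1, from 186 to 177 bases before it. The upstream start of Cdkn1a had 2, beginning 73 and 51 bases before it. Sesn2 had no half-site and 1 antioxidant response core, from 36 to 28 bases before the start. Of the 10 windows of the members, 5 held a p53 half-site, against 7.13% of the 32841 windows of this length in the table. For the antioxidant response core the numbers were 1 of 10 and 10.2%, for the cyclic AMP response element 1 of 10 and 1.55%, and for AP-1 0 of 10 and 6.75%. A match is a stretch of letters and not a measured site, and response elements of p53 often lie outside such a window.

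Libraries held between 29130007 and 51285343 counts. Nrf2 KO replicate 1 stood apart, since its values in log2 CPM, the count of a gene scaled to sequencing depth, had a Pearson's r across genes of 0.931 and 0.939 with replicates 2 and 3 of its group, which had 0.995 with each other. Results are therefore also given without it, without both replicate 1 libraries, and with the replicate number as a block, since same-numbered libraries of the groups deviated together. Nfe2l2, the gene of NRF2, was at 99.1 ± 26.2 CPM in the control and 279 ± 103 CPM in the Nrf2 KO-labelled libraries (SD, n = 3 each; log2 fold change 1.49, SE 0.32, adjusted p = 0.0456). Its transcript was thus called higher, not lower, under the knockout label. That call was lost without any 1 library other than Nrf2 KO replicate 1 (adjusted p from 0.0784 to 0.202), with upper-quartile scaling (0.0526) and with library size alone (0.0593), and without Nrf2 KO replicate 1 it held at 1.15 (adjusted p = 0.0126). NRF2 protein was not measured, so the transcript level does not settle whether the label holds. Every direction below is that of the Nrf2 KO-labelled libraries over control. The hair cell factor Atoh1 had 0 counts in all 6 libraries, and Myo7a, a hair cell myosin, was present and higher in the Nrf2 KO-labelled libraries (log2 fold change 3.95, SE 0.33). Of tested markers, 1 of 2 for hair cells and 3 of 8 for supporting cells were called higher. So were 4 of 9 for fibroblasts and 1 of 1 for epithelia. Called lower were 1 of 2 for leukocytes and 1 of 3 for neurons and glia. Of all tested genes 4.83% were called higher and 3.45% lower. Negative fold changes were seen for 2 fibroblast and 3 supporting cell markers, and positive ones for 1 leukocyte marker and 1 of neurons and glia. DESeq2 called 2 fibroblast markers lower. Without Nrf2 KO replicate 1, 1 fibroblast marker and 1 supporting cell marker were called lower. Of 3 endothelial markers 1 was called higher, while the other 2 had negative fold changes and were lower by DESeq2 and without Nrf2 KO replicate 1, with a median log2 fold change of -1.16 over the list. The summed level of the fibroblast list was 12510 to 12690 CPM in the control and 10640 to 13320 CPM in the Nrf2 KO-labelled libraries, that of the leukocyte list 7.42 to 10.1 and 3.42 to 14.5 CPM, with Ptprc at 0 in 5 libraries. It was 2.65 to 3.08 and 1.51 to 2.68 CPM for endothelium, and 19.1 to 25.95 and 10.1 to 17.6 CPM for neurons and glia. The sums were 33.0 to 45.05 and 62.5 to 76.5 CPM for hair cells, 415 to 506 and 491 to 709 CPM for supporting cells, and 0.877 to 1.83 and 5.40 to 7.69 CPM for epithelia. In bulk samples fewer cells of a type and less RNA per cell cannot be told apart, and the part of these markers in the results below was not tested.

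Plk2 and Gadd45a rose in the Nrf2 KO-labelled libraries, by 5.47 and 3.17 times, and none of the other 7 targets passed the test with all 6 libraries. Thus 2 of 9 members were called higher and 0 lower by edgeR's quasi-likelihood test, where 4.83% and 3.45% of the 14618 tested genes were called. With an unadjusted p below 0.05, 3 members were higher and 0 lower (13.4% and 11.6% of all genes), and 2 were higher and 0 lower by DESeq2 (10.9% and 9.02% of all genes) and by limma-voom (4.84% and 3.74%). With upper-quartile scaling (4.31% and 4.08%) and with library size alone (4.42% and 3.66%) Plk2 was the 1 member called. Cdkn1a, the main effector of the p53 arrest in G1, had nearly the same level in both groups. All 9 fold changes were above 0 with the scaling used, as were 53.6% of those of all tested genes, and the median was 0.43 on the log2 scale against 0.04 for all genes. With upper-quartile scaling the log2 fold change of Cdkn1a was below 0 (-0.017).

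**Figure D1:**
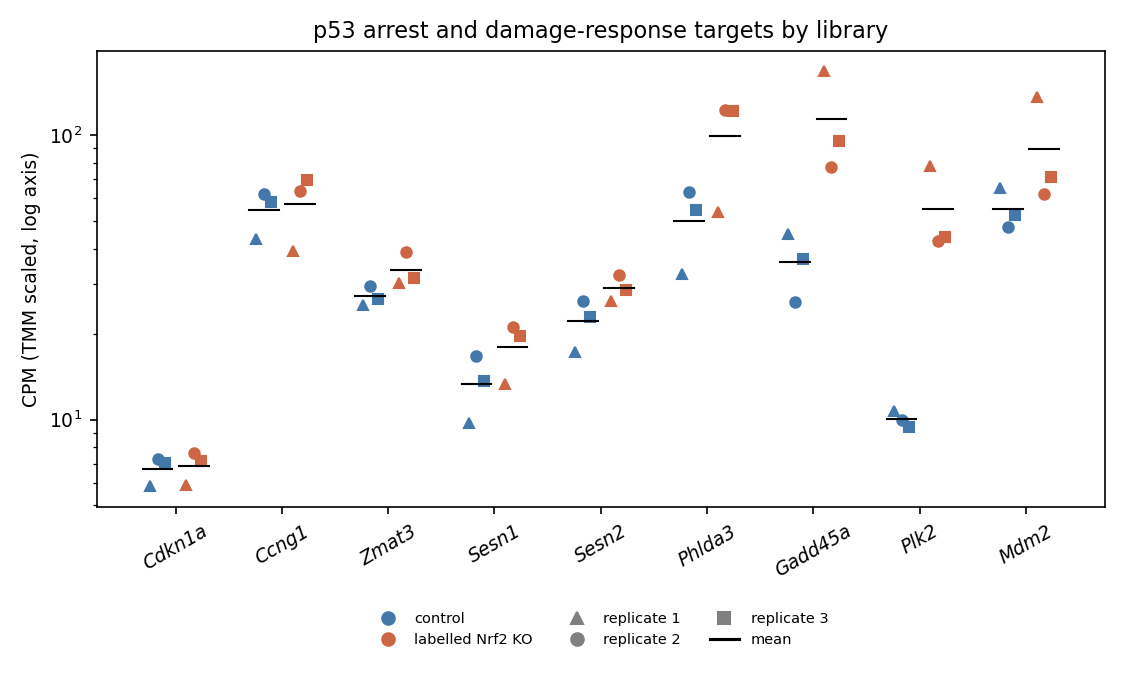
Level of each of the 9 targets in every library, in CPM on a log axis. Blue points are control and orange points labelled Nrf2 KO, triangles are replicate 1, circles replicate 2 and squares replicate 3, and bars are means of 3 libraries. For Plk2 the 3 Nrf2 KO-labelled libraries lie between 42.6 and 78.3 CPM, above all control libraries at 9.44 to 10.7 CPM, while the Cdkn1a groups overlap.

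Plk2 is a polo-like kinase that acts at the centrosome and in checkpoint control. Control replicates 1, 2 and 3 had 10.7, 9.96 and 9.44 CPM of it, against 78.3, 42.6 and 44.1 CPM in the Nrf2 KO-labelled libraries. The control libraries lay close together, and replicate 1 was the highest of the Nrf2 KO-labelled libraries, with no overlap between the groups. The means were 10.0 ± 0.658 and 55.0 ± 20.2 CPM (SD, n = 3 each; log2 fold change 2.45, SE 0.27, 95% interval 1.80 to 3.10, adjusted p = 0.00659). In the table of all tested genes, 1.76% had a larger log2 fold change. The call was lost without control replicate 2 (log2 fold change 2.45, adjusted p = 0.0501) or control replicate 3 (2.40, adjusted p = 0.0565) and kept without any other single library. The 3 ratios of same-numbered libraries were 2.86, 2.09 and 2.22 on the log2 scale.

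Gadd45a encodes a small damage-inducible protein that binds PCNA and stress kinase activators and takes part in arrest in G2. In the control it was at 45.0, 26.0 and 36.7 CPM, against 168, 77.6 and 95.9 CPM in the Nrf2 KO-labelled libraries, for replicates 1, 2 and 3. Replicate 1 was the highest of each group, and the groups did not overlap. The means were 35.9 ± 9.53 and 114 ± 47.7 CPM (SD, n = 3 each; log2 fold change 1.66, SE 0.35, 95% interval 0.83 to 2.5, adjusted p = 0.0407). This call lay close to 0.05. Adjusted p rose to 0.0531 with upper-quartile scaling and to 0.0540 with library size alone, and the call was also lost when control replicate 1 (0.109), 2 (0.145) or 3 (0.177) was dropped, or Nrf2 KO replicate 2 (0.0590) or 3 (0.0963). Without Nrf2 KO replicate 1 it held, at 1.27 on the log2 scale (SE 0.23, adjusted p = 0.0104). The exons of the mouse gene share 337 bases with E230016M11Rik, a transcript of the opposite strand in the GENCODE M21 annotation. Whether counting used strand, or these gene models, is not known here. It is thus also not known whether reads of E230016M11Rik entered the count of Gadd45a.

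Phlda3 encodes a small protein with a pleckstrin homology domain that competes with the kinase AKT for membrane lipids. It stood at 32.6, 63.1 and 54.8 CPM in control libraries and at 53.6, 123 and 122 CPM in the Nrf2 KO-labelled libraries. Replicate 1 was the lowest of each group, so Nrf2 KO replicate 1 lay within the range of the control and the groups overlapped, although each Nrf2 KO-labelled library was above the control library of its number. The log2 fold change was 0.99 (SE 0.39, 95% interval 0.04 to 1.93) and did not pass over all genes (unadjusted p = 0.0445, adjusted p = 0.187). It passed with the replicate block (0.95, SE 0.13, adjusted p = 0.0154) and without Nrf2 KO replicate 1 (1.28, SE 0.26, adjusted p = 0.0143).

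Mdm2, the ubiquitin ligase that restrains p53, was at 65.2, 47.5 and 52.6 CPM in the control and at 136, 62.1 and 71.3 CPM in the Nrf2 KO-labelled libraries. Replicate 1 was again the highest of each group, and control replicate 1 lay above Nrf2 KO replicate 2, so the groups overlapped. The means were 55.1 ± 9.13 and 89.9 ± 40.5 CPM (SD, n = 3 each), and the log2 fold change of 0.71 (SE 0.33, 95% interval -0.09 to 1.5) did not pass (adjusted p = 0.253, and 0.0647 with the replicate block). It dropped to 0.27 when Nrf2 KO replicate 1 was left out, and did not pass there (SE 0.16, adjusted p = 0.224). The log2 ratio of the replicate 1 libraries was 1.06, against 0.39 and 0.44 for numbers 2 and 3.

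Cdkn1a encodes p21, an inhibitor of cyclin-dependent kinases, and is the target most directly tied to p53 arrest. It was counted 228, 323 and 272 times in the control libraries and 184, 376 and 294 times in those labelled Nrf2 KO. Scaled to depth this was 5.82, 7.26 and 7.01 CPM against 5.87, 7.66 and 7.15 CPM, and the groups overlapped throughout. On the log2 scale the difference was 0.04 (SE 0.21, adjusted p = 0.933), with a 95% interval from -0.45 to 0.54. A change of either sign inside that interval remains compatible with these libraries. Ccng1, cyclin G1, a p53 target that recruits a phosphatase to MDM2, was at 43.1, 62.3 and 58.4 CPM against 39.2, 63.6 and 69.5 CPM (log2 fold change 0.07, SE 0.26, 95% interval -0.56 to 0.71, adjusted p = 0.903). Neither gene has a settled direction: Cdkn1a turned to -0.052 without control replicate 1 and to -0.041 without Nrf2 KO replicate 2, and Ccng1 to -0.073, -0.0047 and -0.086 without control replicate 1, Nrf2 KO replicate 2 and Nrf2 KO replicate 3. Exons of mouse Cdkn1a share 273 bases with an unnamed transcript of the opposite strand in the same annotation.

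Sesn1 and Sesn2 encode sestrins, leucine-responsive inhibitors of the growth kinase mTORC1, and Sesn2 is also known as a target of NRF2. Sesn2 was at 17.4, 26.1 and 23.0 CPM in the control and 26.2, 32.2 and 28.6 CPM in the Nrf2 KO-labelled libraries. The lowest Nrf2 KO-labelled library was just above the highest control library, so the groups did not overlap, yet the log2 fold change of 0.39 (SE 0.20, adjusted p = 0.292) did not pass. Sesn1 was at 9.75, 16.7 and 13.7 CPM against 13.3, 21.2 and 19.6 CPM, with overlap and a log2 fold change of 0.43 (SE 0.28, adjusted p = 0.407). Zmat3, a zinc finger protein that binds RNA and affects splicing, was at 25.3, 29.6 and 26.6 CPM against 30.2, 39.0 and 31.6 CPM. Its groups did not overlap, with a log2 fold change of 0.31 (SE 0.16, 95% interval -0.09 to 0.70, adjusted p = 0.317).

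**Figure D2:**
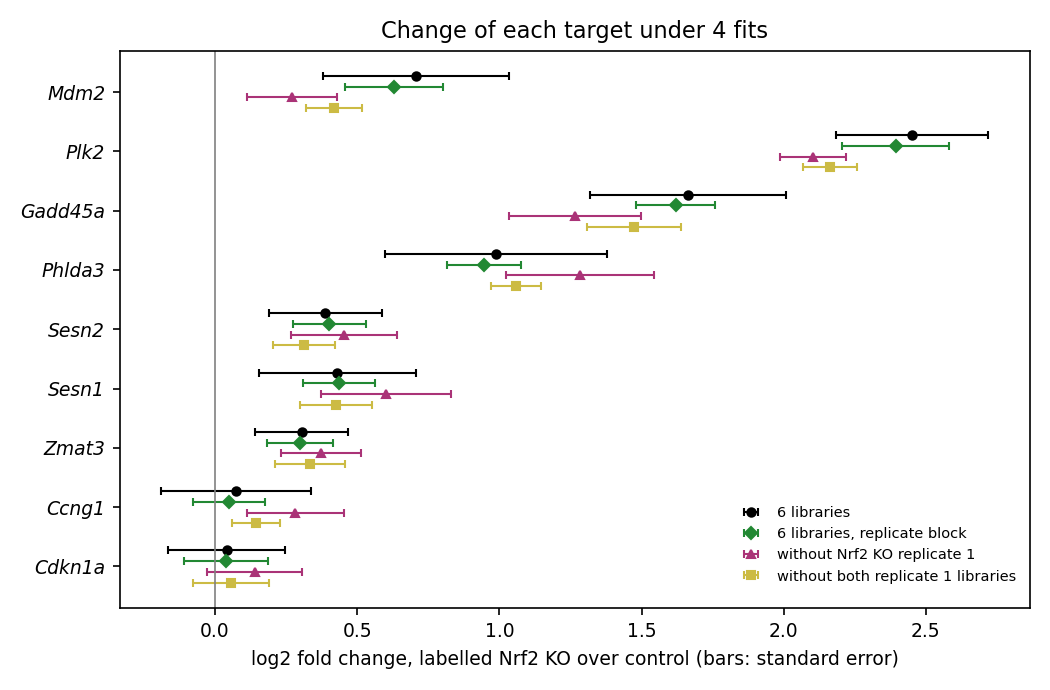
Log2 fold change of each target, labelled Nrf2 KO over control, with its standard error, from 4 fits: all 6 libraries, all 6 and a replicate block, all but Nrf2 KO replicate 1, and without both replicate 1 libraries. Plk2 stays between 2.10 and 2.45, Mdm2 moves from 0.71 to 0.27 without Nrf2 KO replicate 1, Ccng1 lies between 0.05 and 0.28 and Cdkn1a between 0.04 and 0.14.

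The groups did not overlap for 4 of the 9 members, Sesn2, Gadd45a, Zmat3 and Plk2, all higher in the Nrf2 KO-labelled libraries, where 17.1% of all tested genes were higher without overlap and 17.1% lower. In all 3 pairs of same-numbered libraries the Nrf2 KO-labelled library was the higher for 8 of 9 members, Ccng1 being the exception, and the lower for 0 of 9, against 30.3% and 30.5% of all genes. The 8 include Cdkn1a, whose 3 log2 ratios were near 0 (0.013, 0.075 and 0.027). The replicate block called 3 members higher (Plk2, Gadd45a and Phlda3) and 0 lower, against 10.4% and 7.92% of all genes, and leaving out Nrf2 KO replicate 1 called the same 3 higher and 0 lower (15.6% and 14.5%). Without both replicate 1 libraries 6 members were higher and 0 lower, where 24.0% and 22.1% of all genes were. The added ones were Mdm2 (log2 fold change 0.42, adjusted p = 0.0108), Sesn1 (0.43, adjusted p = 0.0264) and Sesn2 (0.31, adjusted p = 0.0480). Cdkn1a (adjusted p = 0.749), Ccng1 (0.194) and Zmat3 (0.0584) did not pass in that fit of 2 against 2 libraries.

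The offset of replicate 1 split the members, as it did all tested genes. In both groups 6 members were lower in replicate 1 than in the mean of replicates 2 and 3, and the other 3, Mdm2, Gadd45a and Plk2, were higher in both, while 40.9% and 40.0% of all tested genes were lower or higher in both groups. The offset was largest for Phlda3, at -0.85 in the control and -1.19 in the Nrf2 KO-labelled libraries on the log2 scale. For Mdm2 it was 0.38 and 1.03, for Gadd45a 0.54 and 0.96, and for Plk2 0.15 and 0.85. What the replicate number marks is not given in the labels. Nrf2 KO replicate 1 had the fewest counts of the libraries (29130007).

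**Figure D3:**
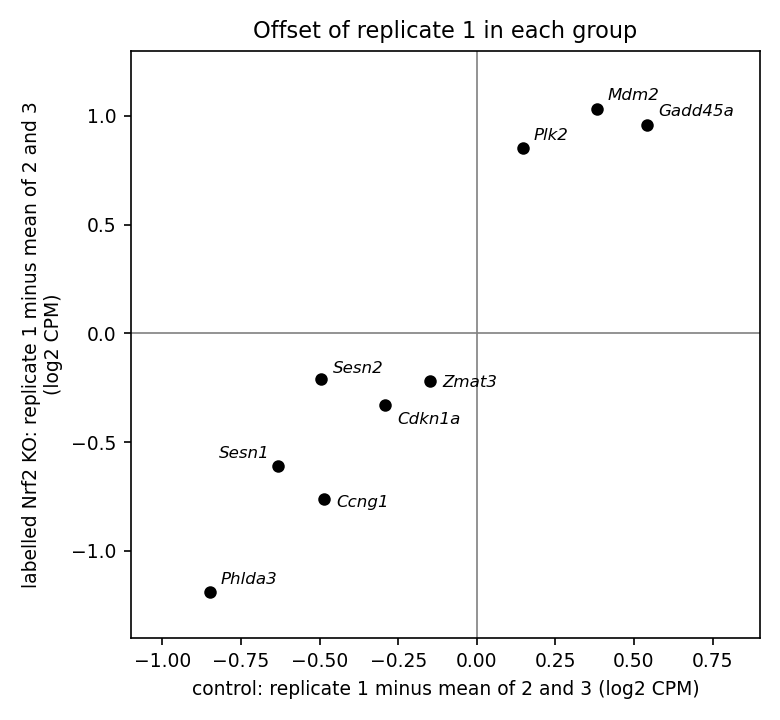
Offset of replicate 1 from the mean of replicates 2 and 3, in log2 CPM, in the control (horizontal axis) and in the Nrf2 KO-labelled libraries (vertical axis), 1 point per target. Mdm2, Gadd45a and Plk2 lie above 0 in both groups and the other 6 targets below 0 in both.

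Levels of different genes can be set side by side only per length, for which the authors' deposited table gives 1 FPKM value per group. In the control the order in that table was Phlda3 (28.9 FPKM), Gadd45a (24.3), Mdm2 and Ccng1 (14.01 each), Sesn2 (6.72), Sesn1 (3.84), Zmat3 (3.01), Plk2 (2.98) and Cdkn1a (2.81). In the group labelled Nrf2 KO, the authors' deposited table puts Gadd45a first, at 77.0 FPKM, then Phlda3 (56.1), Mdm2 (23.2), Plk2 (16.3) and Ccng1 (14.5), with Cdkn1a last at 2.85. Plk2 thus moved from the last but one place to the fourth. The table has no value per library, so whether neighbours such as Mdm2 and Ccng1, or Zmat3, Plk2 and Cdkn1a in the control, differ beyond their spread could not be read from it.

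Within the protein families of the members, the paralogs did not all move the same way. Sesn3, the third sestrin and a known FoxO target, fell from 237 ± 14.5 to 88.9 ± 15.6 CPM (SD, n = 3 each; log2 fold change -1.42, SE 0.18, adjusted p = 0.00841), with control libraries at 227, 254 and 231 CPM and those labelled Nrf2 KO at 73.0, 104 and 89.4 CPM. Sesn1 and Sesn2 had positive fold changes that did not pass. Phlda1, a paralog of Phlda3, rose from 7.07 ± 1.15 to 48.3 ± 22.5 CPM (2.77, SE 0.34, adjusted p = 0.00947). Gadd45b rose from 18.7 ± 3.01 to 36.6 ± 6.08 CPM (0.97, SE 0.20, adjusted p = 0.0359). Gadd45g was at 10.95 ± 2.97 and 23.1 ± 13.1 CPM (1.08, SE 0.42), and passed with the replicate block (adjusted p = 0.0389) but not without it (0.186). Of the polo-like kinases other than Plk2, Plk1, Plk3 and Plk4 had log2 fold changes of 0.10, 0.09 and 0.42 and did not pass (adjusted p = 0.790, 0.926 and 0.111). In all, 2 of 16 tested paralogs were higher and 1 lower, and 3 and 2 with the block, with a median of 0.10. Of all tested genes 4.83% were higher and 3.45% lower, and 10.4% and 7.92% with the block.

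The calls of these paralogs did not hold in every fit with 1 library left out. That of Sesn3 was lost without control replicate 2 (adjusted p = 0.0522) or 3 (0.0642) or Nrf2 KO replicate 3 (0.0520), and that of Phlda1 without control replicate 1 (0.0526), 2 (0.0648) or 3 (0.0709). Gadd45b lost it without any 1 library other than Nrf2 KO replicate 1 (adjusted p from 0.0663 to 0.185), and with upper-quartile scaling (0.0549) or library size alone (0.0554). All 3 kept their direction in every fit with 1 library left out. Except without Nrf2 KO replicate 1, those fits also called fewer of all tested genes, 139 to 271 higher and 57 to 110 lower. With all 6 libraries 706 were called higher and 505 lower.

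**Figure D4:**
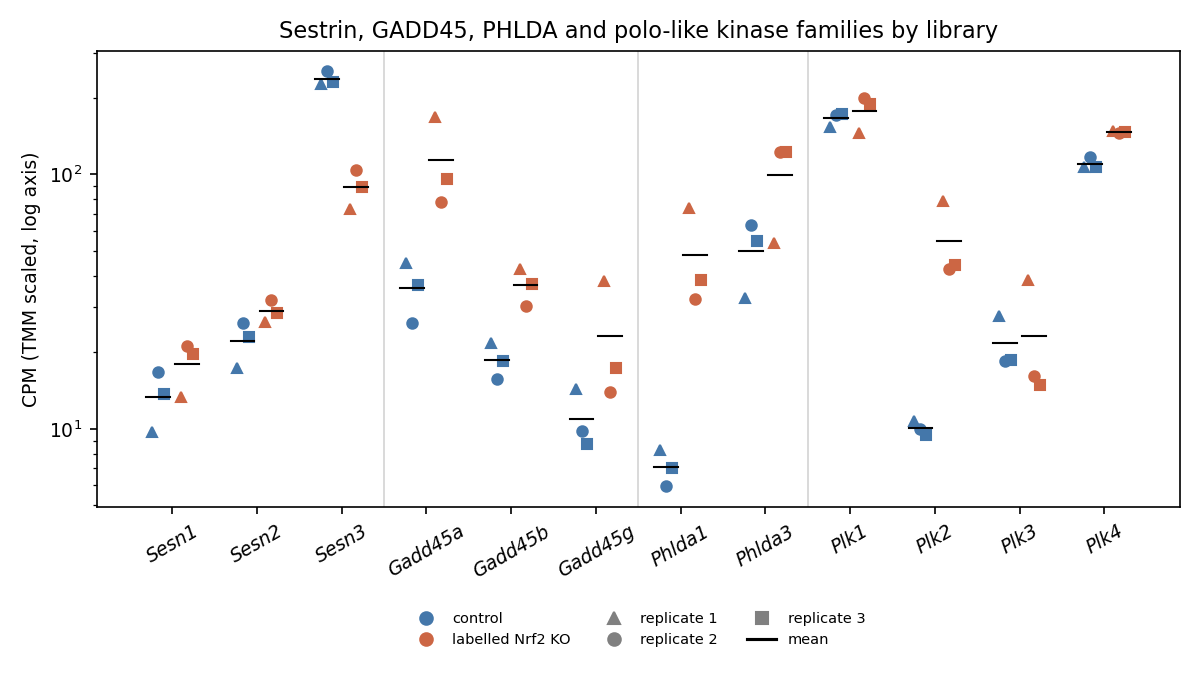
Level of sestrin, GADD45, PHLDA and polo-like kinase genes in every library, in CPM on a log axis, with the colours, shapes and bars of the plot of the 9 targets. Sesn3 is lower in the 3 Nrf2 KO-labelled libraries (73.0 to 104 CPM) than in the control (227 to 254 CPM), while Plk1 and Plk3 overlap between the groups.

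Of 35 tested p53 targets outside the members, 2 were higher and 1 lower, with a median log2 fold change of 0.09. Fas, a death receptor, rose from 0.465 ± 0.174 to 4.91 ± 0.370 CPM (3.39, SE 0.32, adjusted p = 0.00395), and kept its call in all 6 fits with 1 library left out. Ptpn14, a phosphatase that restrains YAP, rose from 87.0 ± 14.03 to 157 ± 22.7 CPM (0.85, SE 0.19, adjusted p = 0.0463). Ddit4, an mTORC1 inhibitor like the sestrins, fell from 11.5 ± 0.867 to 4.79 ± 1.28 CPM (-1.27, SE 0.25, adjusted p = 0.0316). Ptpn14 and Ddit4 lost the call without any 1 library other than Nrf2 KO replicate 1, with adjusted p from 0.0952 to 0.239 and from 0.0740 to 0.158, and Ptpn14 also with no filter on low counts (0.0725). With the block 4 of the 35 were higher and 2 lower, and without Nrf2 KO replicate 1 4 and 5. The regulators of p53 gave 0 calls in either direction among 26 tested by edgeR (2 higher and 1 lower with an unadjusted p below 0.05, by DESeq2 and with the block, 0 and 0 by limma-voom, 3 and 3 without Nrf2 KO replicate 1). The 2 most abundant, Rpl5 and Rpl11, ribosomal proteins that bind MDM2, had log2 fold changes of -0.42 (SE 0.21, adjusted p = 0.273) and -0.69 (SE 0.24, adjusted p = 0.142). Rpl11 was called lower by DESeq2 (adjusted p = 0.0396), under the block (0.0492) and without Nrf2 KO replicate 1 (0.0486). It was also called without both replicate 1 libraries (0.0098), and under no other alternative.

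In the G1/S machinery, 2 of 23 tested genes were higher and 0 lower by edgeR (3 and 5 with an unadjusted p below 0.05, 3 and 4 by DESeq2, 2 and 0 by limma-voom, 3 and 3 with the block, 4 and 5 when Nrf2 KO replicate 1 was left out), the median being -0.18. Ccnd1, cyclin D1, was at 69.4 ± 9.34 CPM and rose to 223 ± 68.7 CPM (1.69 on the log2 scale, SE 0.27, adjusted p = 0.0194), and Cdkn2b, an inhibitor of the kinases that cyclin D activates, from 80.3 ± 7.82 to 235 ± 80.3 CPM (1.55, SE 0.29, adjusted p = 0.0287). Both lost the call without any 1 library other than Nrf2 KO replicate 1, with adjusted p from 0.0714 to 0.113 and from 0.0973 to 0.147. Among 35 cell cycle genes that p53 represses through p21, edgeR called 0 in either direction (4 higher and 2 lower with an unadjusted p below 0.05 and by DESeq2, 1 and 1 by limma-voom, 3 and 2 with the block, 6 and 2 when Nrf2 KO replicate 1 was left out), the median being 0.08. Its 2 most abundant members were the proliferation marker Mki67 (log2 fold change -0.06, SE 0.16, adjusted p = 0.878) and the ribonucleotide reductase subunit Rrm2 (0.82, SE 0.48, adjusted p = 0.367, and 1.19 with adjusted p = 0.0154 without Nrf2 KO replicate 1). For the 16 tested DNA damage response genes the count was 0 in both directions by edgeR, DESeq2, limma-voom and the block. It was also 0 with an unadjusted p below 0.05, but leaving out Nrf2 KO replicate 1 gave 2 lower ones. The most abundant, H2afx and Topbp1, had log2 fold changes of 0.17 (SE 0.22) and 0.41 (SE 0.27).

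Several members answer to other stress factors as well, so genes that share those inducers were counted. The shares of all tested genes, higher and lower, were 4.83% and 3.45% by edgeR and 13.4% and 11.6% with an unadjusted p below 0.05. They were 10.9% and 9.02% by DESeq2 and 4.84% and 3.74% by limma-voom. With the block they were 10.4% and 7.92%, and without Nrf2 KO replicate 1 15.6% and 14.5%. Of 22 genes around mTORC1, including GATOR and Rag genes through which the sestrins act, 1 was higher and 0 lower by edgeR. The counts were 5 and 2 with an unadjusted p below 0.05, 4 and 2 by DESeq2, and 1 and 0 by limma-voom. With the block they were 2 and 2, and 5 and 2 when Nrf2 KO replicate 1 was left out, the median log2 fold change being 0.20. The 1 called was Tsc1, an mTORC1 inhibitor that is neither a GATOR nor a Rag gene. Tsc1 was at 37.8 ± 0.632 CPM and rose to 73.4 ± 3.57 CPM (0.96 on the log2 scale, SE 0.13, adjusted p = 0.00884). Of 16 ATF4 targets, a pathway that induces Sesn2 and Gadd45a, 0 were higher and 1 lower by edgeR (1 and 6 with an unadjusted p below 0.05 and with the block, 1 and 5 by DESeq2, 0 and 1 by limma-voom, 2 and 6 when Nrf2 KO replicate 1 was left out), the median being -0.28. Atf3, a stress factor, fell from 2.94 ± 0.625 to 0.511 ± 0.153 CPM (-2.51, SE 0.33, adjusted p = 0.00989). Of 16 FoxO targets, which share inducers with Sesn1, 0 were higher and 3 lower by edgeR (4 and 5 with an unadjusted p below 0.05, 2 and 4 by DESeq2 and with the block, 0 and 3 by limma-voom, 4 and 5 when Nrf2 KO replicate 1 was left out), the median being -0.05. The lower ones were Sesn3, Klf15 (-1.30, SE 0.17, adjusted p = 0.00986) and Txnip, a thioredoxin inhibitor (-0.84, SE 0.14, adjusted p = 0.0169). Tsc1 lost its call when control replicate 1 (adjusted p = 0.0625), 2 (0.0654) or 3 (0.0876) was dropped, or Nrf2 KO replicate 2 (0.0534). Atf3 lost it when control replicate 1 (0.0548) or 3 (0.0714) was dropped, or Nrf2 KO replicate 2 (0.0558). Klf15 and Txnip lost it without any 1 library other than Nrf2 KO replicate 1, with adjusted p from 0.0513 to 0.0737 and from 0.0722 to 0.130.

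Counts in these lists were larger without both replicate 1 libraries, a fit in which 24.0% of all tested genes were called higher and 22.1% lower. Of the other p53 targets 8 were then higher and 10 lower, and of the p53 regulators 6 and 4. Of the paralogs 5 were higher and 4 lower, of the G1/S genes 4 and 7, and of the genes repressed through p21 12 and 5. Of the genes around mTORC1, 21 of which were tested there, 8 were higher and 3 lower. The ATF4 targets gave 3 and 7, the FoxO targets 6 and 7, and the DNA damage response genes 0 and 4.

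**Figure D5:**
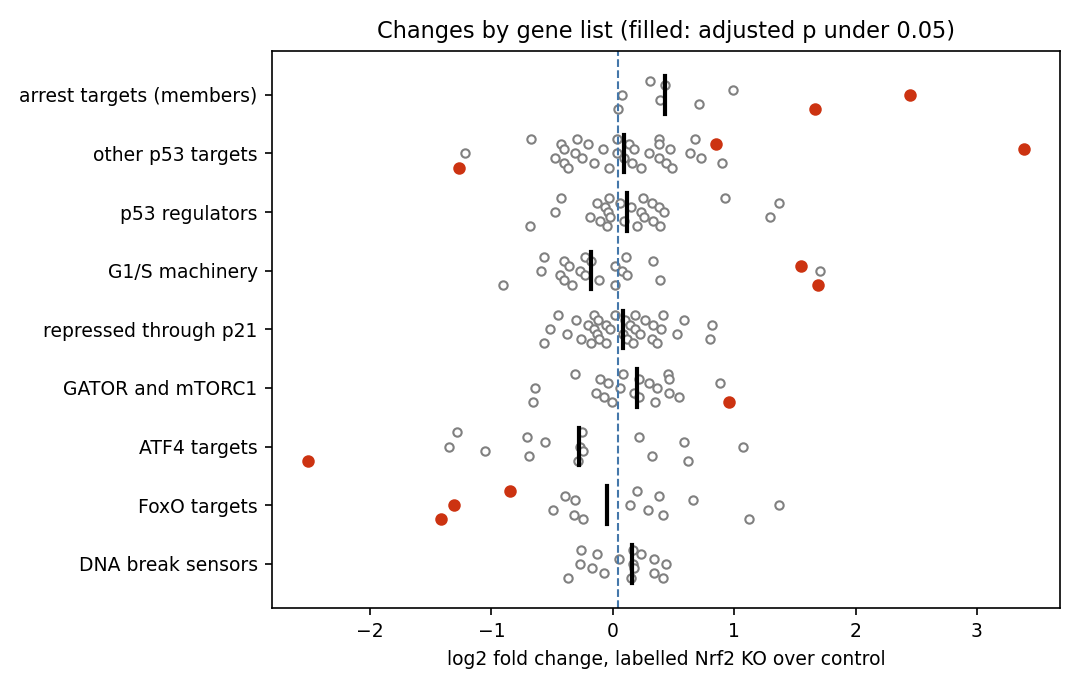
Log2 fold change, labelled Nrf2 KO over control, of every tested gene of 9 lists. Filled points have an adjusted p under 0.05, open points do not, thick bars are list medians and the dashed line is the median of all tested genes (0.04). The median is 0.43 for the 9 arrest targets and between -0.28 and 0.20 for the other lists. The row labelled DNA break sensors holds the DNA damage response genes.

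The genes with the most similar pattern were sought by the root mean square difference of log2 CPM over the 6 libraries, each gene centred on its own mean, among 9600 genes of at least 5 CPM on average. For Plk2 they were Aebp1 (0.148), Meis1 (0.152) and Clmp (0.170), with log2 fold changes of 2.24, 2.24 and 2.20. For Gadd45a they were Slc25a45 (0.123), Pmepa1 (0.171) and Nrn1 (0.192). For Mdm2 they were Haus3 (0.0385), Irf9 (0.0415) and Npdc1 (0.0473), and for Cdkn1a they included Prkag2 (0.0253) and Efl1 (0.0264). Among the members themselves Sesn2 and Zmat3 were closest (0.133), Sesn1 and Sesn2 differed by 0.146, and Plk2 was nearest to Gadd45a (0.447). All genes were compared over the same 6 libraries, replicate 1 included, so likeness in this measure is a description of those libraries.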

How the data were processed

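RNA of 6 HEI-OC1 libraries, 3 control and 3 labelled Nrf2 KO, was analysed from 2 tables. The deposited counts are whole numbers per gene symbol and library, with no normalisation. The second table holds FPKM by the authors, 1 value per group. The submitters' processing notes list fastp, FastQC, HISAT2, DESeq2 1.34.0 and, as build, hg18, without saying what each was used for. How reads were assigned to genes, on which strand and with which gene models, is not given. The symbols follow rat nomenclature, although the cells are from mouse.

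The main test was that of edgeR 4.0.16 in R 4.3.3 (quasi-likelihood, robust, TMM scaling, group as the only term). Genes were kept with filterByExpr (minimum count 10, minimum total count 15), and p-values are two-sided, adjusted by Benjamini-Hochberg over the 14618 genes tested, and called under 0.05. An adjusted p with no tool beside it is from edgeR. CPM are TMM-scaled, and log2 CPM has a prior count of 2. Standard errors and 95% intervals come from the fitted model. The 15 alternatives were 3 other scalings, DESeq2 1.42.0, limma-voom (limma 3.58.1), 2 filters, the replicate block, and fits without 1 library or both replicate 1 libraries. The code was tested on simulated data.

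Deviations from group means of same-numbered libraries correlated at 0.754, 0.696 and 0.310 across genes, each above the limit of 0.1, and same numbers were treated as pairs for that reason alone, the labels giving none. Control replicate 3 was an exception in rank, its correlation with Nrf2 KO replicate 3 being below that of control replicate 2 (0.539). Control replicate 3 and Nrf2 KO replicate 2 correlated at 0.278. Deviations from a group mean cancel out within the group, so an offset shared by the replicate 1 libraries alone also makes numbers 2 and 3 correlate. Passing the limit therefore does not show that numbers 2 and 3 are pairs. No pair of libraries of a group differed by as little as sampling noise (lowest chi-square per degree of freedom 14.3). The members and lists were chosen with earlier results of these data known. Of 285 listed symbols 282 were in the table. Named in each list were up to 4 called genes with the smallest p, or the 2 most abundant where none was called, while Plk1, Plk3, Plk4, Gadd45g, Atoh1 and Ptprc were added outside this rule, with their values known. Of marker lists only the genes that a result turns on are named. For each called member, Cdkn1a and Mdm2, up to 3 genes most alike were named. Some genes, the p53 gene itself among them, are not reported here.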

Additional observations from a re-analysis of the deposited data

How the results depend on the processing

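The 2 higher members became 1 with upper-quartile scaling and with library size alone, 6 without both replicate 1 libraries, and 0 to 3 with 1 library left out. No member was called lower under any of the 15 alternatives. Over all genes the 706 higher and 505 lower calls became 1598 and 1318 by DESeq2, 1520 and 1158 with the replicate block, and 3540 and 3253 without both replicate 1 libraries, with ranges of 139 to 2323 and 57 to 2162 with 1 library left out. Of genes in the other lists, 17 were higher and 7 lower. These became 32 and 29 by DESeq2, 33 and 24 with the replicate block, and 65 and 57 without both replicate 1 libraries. The lower ones became 12 with upper-quartile scaling and 11 with library size alone, and the ranges with 1 library left out were 6 to 42 and 1 to 39. Among members the block changed only the call of Phlda3. The sign of Cdkn1a turned with upper-quartile scaling (-0.017), without control replicate 1 (-0.052) and without Nrf2 KO replicate 2 (-0.041), and with 1 library left out its log2 fold change ran from -0.052 to 0.14. That of Ccng1 turned without control replicate 1 (-0.073) and Nrf2 KO replicate 2 (-0.0047) or 3 (-0.086), with a range of -0.086 to 0.28. The other 7 members kept their sign under all 15. Where fits with fewer libraries lost calls they also had fewer residual degrees of freedom, and the cause of the other changes was not tested. Of the members Cdkn1a had the fewest counts, 184 to 376 a library.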
